A study of Mus musculus with 12 samples.

Results

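The 8 transcription factors of epithelial and hepatic lineages, Hnf4a, Hnf4g, Foxa2, Foxa3, Nr1h4, Cebpa, Pax2 and Pax8, were followed in mouse kidney cortex. They were taken as the rows of the deposited count table that carry these symbols, and 8 of the 37681 genes in the table were found, each once. RNA from a thin outer slice of cortex was sequenced from the 2 kidneys of 6 untreated male C57BL/6 mice, 18 months old. The 3 TG+ mice (43-29, 43-49 and 43-75; genotype TRACK/gamma-HIF1alphaM3 TG+) carried a transgene for a constitutively active mutant HIF1α that the study expressed in renal proximal tubules. The 3 TG- mice (43-26, 43-50 and 43-76; TRACK/gamma-HIF1alphaM3 TG-) were wild-type littermates without it, and the labels name no other allele or agent in either group. The comparison asked which mRNAs differ when HIF1α is active in the proximal tubule, while the slice holds other cortical cell types too.

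HNF4A is an orphan nuclear receptor that keeps hepatocytes, enterocytes and proximal tubule cells in their differentiated state, and HNF4G is its close paralog. FOXA factors open chromatin in liver and gut, NR1H4 (FXR) is the bile acid receptor, and C/EBPα is a bZIP factor of hepatocytes, adipocytes and myeloid cells. PAX2 and PAX8 establish the nephric lineage in the embryo, and PAX8 remains in tubular epithelium of the adult kidney.

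Hnf4a has 2 start sites in the RefSeq table on GRCm38.p6, which lie 40298 bases apart on the plus strand of chromosome 2 and which a count per gene cannot separate. The 250 bases before each start are shown because Hnf4a was the only one of these factors called changed below, and capitals mark GTTAAT or its reverse complement ATTAAC, a partial site of the HNF1 factors.
Hnf4a upstream start, chr2:163506607-163506856, plus strand: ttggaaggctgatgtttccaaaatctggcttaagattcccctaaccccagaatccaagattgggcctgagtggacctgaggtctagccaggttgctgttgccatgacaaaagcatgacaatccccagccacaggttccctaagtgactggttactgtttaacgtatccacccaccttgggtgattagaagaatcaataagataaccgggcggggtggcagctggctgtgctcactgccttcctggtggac
Hnf4a downstream start, chr2:163546905-163547154, plus strand: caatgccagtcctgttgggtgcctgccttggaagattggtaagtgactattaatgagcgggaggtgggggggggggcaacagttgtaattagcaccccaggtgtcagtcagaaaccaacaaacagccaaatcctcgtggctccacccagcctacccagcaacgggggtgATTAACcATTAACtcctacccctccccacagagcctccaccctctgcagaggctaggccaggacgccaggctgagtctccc
The downstream stretch holds 2 exact matches, which begin 81 and 74 bases before the start, and the upstream stretch holds 0. An HNF1 site that differs from these letters would not be marked, so 0 does not show that the upstream start lacks one. Windows of 300 bases (250 before and 50 after a start) were listed for 7 of the 8 factors, 12 windows in all, with none for Hnf4g. GTTAAT, on either strand, also occurred once in the window of Nr1h4 and once in 1 of the 3 windows of Foxa2, against 7.10% of all 32851 windows in the table. ACGTG, the core bound by HIF, occurred in 0 of the 12 windows and in 19.6% of all windows. Its variant GCGTG was found in all 3 windows of Foxa2, the window of Foxa3 and all 3 windows of Pax2, and in 32.4% of all windows. TGTTTAC (a FOXA motif, 3.65% of all windows) and CAAAGTCCA (an HNF4 motif, 0.47%) were not matched in the 12 windows. These are matches of letters, read on both strands, and none of these motifs overlaps GTTAAT.

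The 12 libraries held 21888584 to 33704850 counted reads, and 19399 genes had enough reads to be tested between genotypes. Proximal tubule markers such as Slc34a1, Lrp2 and Kap were abundant in all 6 mice, as the labelled tissue would have, while markers of adrenal gland and pancreas were low. A pair of call rules were used with edgeR's quasi-likelihood test. The strict rule of the study (adjusted p below 0.01 and more than 2-fold) called 3.98% of tested genes in either direction, and an adjusted p below 0.05 without a minimum fold called 10.9% as lower and 15.4% as higher in TG+ cortex. Hif1a itself was at a log2 fold change of -0.12 with a standard error of 0.09 (adjusted p = 0.343). The gene overlaps the antisense gene Gm15283 and, on the same strand, Gm49321, with which it shares 148 exon bases. Whether reads of the transgene count toward Hif1a was not tested, so this value does not measure the transgene.

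Of the 8 factors, 6 were tested and the other 2 had too few reads. By the strict rule 0 of the 6 were called, both by edgeR and by DESeq2, and 0 were more than 2-fold apart at an unadjusted p below 0.05. At an adjusted p below 0.05, Hnf4a fell, and 0 of the 6 rose. At an unadjusted p below 0.05, Hnf4a and Hnf4g were lower and Cebpa was higher. DESeq2 called these same 3 at an adjusted p below 0.05. All TG+ mice lay below all TG- mice for 2 of the 6 (Hnf4a and Hnf4g), where 20.8% of tested genes did so, and above them for 0 of the 6, where 23.4% did so. A count of 1 lower of 6 tested is thus near the 10.9% of all genes, and Hnf4a is reported as a single gene.

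**Figure D1:**
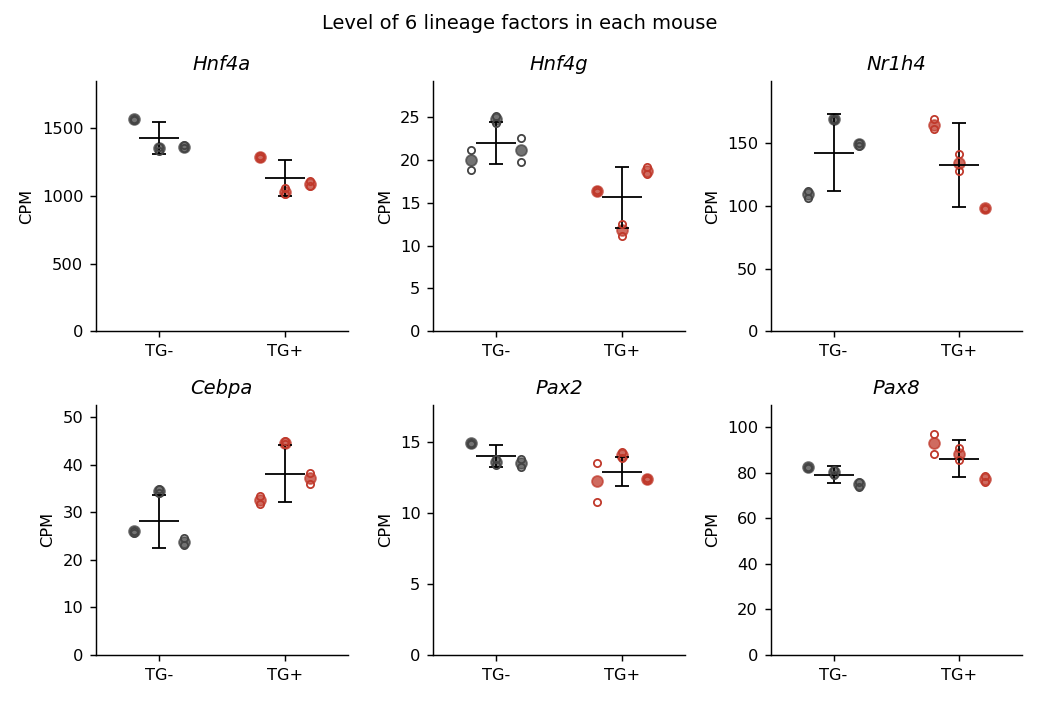
Normalized counts (CPM, linear axes from 0) of the 6 tested factors in TG- and TG+ cortex, with a filled point for each mouse, open points for its 2 kidneys, and the mean with its SD over 3 mice. Hnf4a and Hnf4g do not overlap between genotypes, and the other 4 do.

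Hnf4a was by far the most abundant factor. In CPM, which are counts relative to the scaled size of the library, it stood at 1567, 1353 and 1365 in the TG- mice 43-26, 43-50 and 43-76, and at 1284, 1030.3 and 1089 in the TG+ mice 43-29, 43-49 and 43-75. The highest TG+ mouse was below the lowest TG- mouse, by a margin smaller than the range within either genotype. The means were 1428 ± 120.2 CPM in TG- and 1135 ± 133 CPM in TG+ (SD, n = 3 each). On the log2 scale the difference was -0.33 with a standard error of 0.10, a level 0.794 times that of TG-, at an adjusted p of 0.0395. The exact permutation test of this gene alone gave p = 0.1 (2-sided), the smallest that 3 against 3 mice allow. The kidneys of a mouse differed by at most 0.06 on the log2 scale, against an SD of 0.14 between mice of a genotype, so that the mouse rather than the kidney set the error. The call was lost without any one of 5 mice, with an adjusted p of 0.108 without 43-26, 0.0842 without 43-49, 0.0565 without 43-50, 0.115 without 43-75 and 0.0773 without 43-76. It was also lost under scaling by library size alone (log2 fold change -0.21, adjusted p = 0.121). The antisense gene Hnf4aos overlaps the locus without sharing exon bases and had 1964 reads in the 12 libraries, against 401007 for Hnf4a.

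Hnf4g, the paralog, was much lower, with 332 to 797 reads per library. It stood at 20.04, 24.8 and 21.1 CPM in the TG- mice and at 16.4, 11.8 and 18.8 CPM in the TG+ mice, in the same order. The genotypes did not overlap, and 43-49 was the lowest mouse. Its log2 fold change of -0.49 (standard error 0.16) did not pass at an adjusted p of 0.0605. It passed without 43-75 (-0.66, adjusted p = 0.0349) and in DESeq2 (adjusted p = 0.0126). Reads of Hnf4g amounted to 1.28%, 1.83% and 1.55% of those of Hnf4a in the TG- mice and to 1.27%, 1.14% and 1.72% in the TG+ mice. This ratio, which does not depend on library scaling, overlapped between genotypes, with a log2 difference of -0.18 (2-sided exact permutation p = 0.4, adjusted p = 0.4 over 2 ratios), and of -0.05 without 43-50 or without 43-49 and -0.35 without 43-75.

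The tubular setting of both HNF4 genes was measured beside them. The 12 proximal tubule markers were all lower in TG+ cortex, 8 of them at an adjusted p below 0.05 and 1, Slc22a6 (log2 fold change -1.09), by the strict rule, with a median log2 fold change of -0.65. In bulk tissue, fewer proximal tubule cells and less of an mRNA per cell cannot be told apart. Summed over the 12 markers, the level was 40992 to 43348 CPM in TG- and 29373 to 32760 CPM in TG+, with no marker at 0. Per unit of that sum Hnf4a was 0.08 higher in TG+ on the log2 scale, and Hnf4g was 0.10 lower. Kap, the most abundant marker, hardly differed (-0.08, adjusted p = 0.528), and without it Hnf4a was 0.37 higher per unit of the sum and Hnf4g 0.19 higher. Hnf4a thus fell by less than the median proximal tubule marker. The part of tubular content in the values of the HNF4 genes was not tested.

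Nr1h4, which encodes the bile acid receptor FXR, varied most between mice among the tested factors. It stood at 109, 169 and 149 CPM in the TG- mice and at 165, 134 and 98.1 CPM in the TG+ mice. The genotypes overlapped, and 43-50 and 43-29 were the highest of their groups. TG+ minus TG- came to -0.11 on the log2 scale with a standard error of 0.21 (adjusted p = 0.748), and the sign turned without 43-50 (0.03), without 43-75 (0.06) or under scaling by library size alone (0.015). The coefficient of variation over 3 mice was 21.3% in TG- and 25.3% in TG+, while the kidneys of a mouse differed by at most 0.14 on the log2 scale.

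Among 10 genes regulated through FXR, 5 were tested and 4 had at most 3 reads in every library. Baat, which conjugates bile acids, rose at an adjusted p below 0.05, from 0.916, 1.31 and 1.17 CPM to 1.80, 1.89 and 1.77 CPM (log2 fold change 0.68, standard error 0.17, adjusted p = 0.0237). The other 4 tested genes did not pass in either direction, and the median log2 fold change over the 5 was 0.10, against 0.01 over all tested genes. Slc51a, the most abundant, encodes a subunit of the basolateral bile acid exporter, and its log2 fold change was -0.27 (adjusted p = 0.285). Cyp7a1, the rate-limiting enzyme of bile acid synthesis, and Fgf15, the ileal FXR hormone, had 0 reads in all libraries.

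Cebpa had 573 to 1328 reads per library. It stood at 26.0, 34.5 and 23.8 CPM in the TG- mice and at 32.7, 44.6 and 37.1 CPM in the TG+ mice. The TG+ mice were higher on average, at 38.1 ± 6.02 CPM against 28.1 ± 5.62 CPM (SD, n = 3 each), but the highest TG- mouse, 43-50, lay above the lowest TG+ mouse, 43-29. The log2 fold change of 0.44 (standard error 0.16) did not pass at an adjusted p of 0.0746, and the exact permutation test gave p = 0.2 (2-sided). It passed without 43-50 (0.61, adjusted p = 0.0225), in DESeq2 (adjusted p = 0.0250) and in edgeR with the 3 pairs of mice that the deposited table is named for as a block (0.45, adjusted p = 0.00692). The TG+ mouse was the higher one in 3 of these 3 pairs. Myeloid cells also express Cebpa. Of 9 immune cell markers, which include lymphocyte genes such as Cd3e and Cd79a, 8 were higher in TG+ cortex at an adjusted p below 0.05. The myeloid markers Csf1r, Itgax and Cd68 were among them, and the macrophage marker Adgre1 was not (log2 fold change 0.35, adjusted p = 0.286). The 9 markers summed to 76.8 to 80.8 CPM in TG- and 131 to 133 CPM in TG+. The part of immune cells in the value of Cebpa was not tested.

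Foxa2 and Foxa3 were at the detection floor. Foxa2 had 12 reads in the 12 libraries together and Foxa3 had 19, with at most 3 in any library, and no fold change is given for either. Foxa2 was read in 2 of the 3 TG+ mice and in all 3 TG- mice, and Foxa3 in all 6. Both genes had at most 3 reads per library in each genotype and were not tested, and the ratio of Foxa3 to Foxa2 was not computed.

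Pax2 and Pax8 showed the smallest spread. Pax2 stood at 15.0, 13.6 and 13.5 CPM in the TG- mice and at 12.3, 14.1 and 12.4 CPM in the TG+ mice, a log2 difference of -0.12 with a standard error of 0.08 (adjusted p = 0.341) that was 0.0038 under scaling by library size alone. The TG+ mouse 43-49 lay between the TG- mice. Pax8 stood at 82.4, 80.2 and 74.9 CPM in TG- and at 93.1, 88.2 and 77.3 CPM in TG+, a log2 difference of 0.12 with a standard error of 0.08 (adjusted p = 0.287). Its lowest TG+ mouse, 43-75, lay among the TG- mice. Reads of Pax2 were 18.1%, 17.0% and 18.03% of those of Pax8 in the TG- mice and 13.2%, 16.0% and 16.0% in the TG+ mice. The genotypes did not overlap in this ratio, with a log2 difference of -0.24 (2-sided exact permutation p = 0.1, the smallest possible, adjusted p = 0.2 over 2 ratios), and it was not called. The lowest mouse, 43-29, was also the one whose kidneys differed most in Pax2, by 0.33 on the log2 scale, and without it the difference was -0.15. Pax8 shares 367 exon bases with Gm13415 on the opposite strand, which had 1050 reads against 25956 for Pax8, so some of its reads are uncertain where counting ignores strand.

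**Figure D2:**
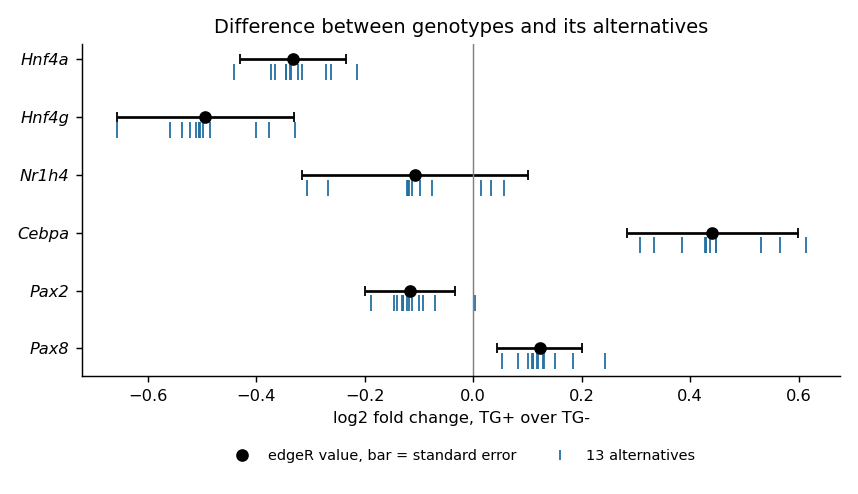
Log2 fold change (TG+ over TG-) of the 6 tested factors, with the edgeR value and its standard error in black and the 13 alternative settings as blue ticks. Hnf4a and Hnf4g stay below 0 and Cebpa and Pax8 above 0 in every setting drawn, while Nr1h4 and Pax2 cross 0.

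The mice that were extreme differed between factors. Among TG- mice, 43-50 had the highest Hnf4g, Nr1h4 and Cebpa and the lowest Hnf4a. Among TG+ mice, 43-49 had the lowest Hnf4a and Hnf4g and the highest Cebpa and Pax2. In that mouse 10 markers of the loop of Henle, distal tubule and collecting duct summed to 5028 CPM, the highest of the TG+ mice (lowest 3730.4 CPM), against 4071 to 4157 CPM in TG-. The part of the sampled segments in these values was not tested. Of those 10 markers, 1 was lower (Aqp3, -0.19, adjusted p = 0.0473) and 0 were higher at an adjusted p below 0.05 in edgeR (2 higher at an unadjusted p below 0.05, 0 in DESeq2), with a median log2 fold change of 0.07. Umod, the most abundant, was at 0.06.

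Levels of different genes were compared per length, in the deposited RPKM (reads scaled to gene length and library size). In TG- cortex the order was Hnf4a (90.7 ± 7.68 RPKM), Nr1h4 (24.2 ± 5.14), Cebpa (10.8 ± 2.15), Pax8 (7.07 ± 0.337), Hnf4g (2.55 ± 0.283) and Pax2 (1.21 ± 0.0688; SD, n = 3 each). Hnf4a ranked 414 of 37681 genes, and Pax2 ranked 12860. No neighbours in this order overlapped among the TG- mice. In TG+ cortex the order of the means was the same, but the ranges of Nr1h4 (16.3 to 27.2 RPKM) and Cebpa (12.2 to 16.7 RPKM) overlapped. Foxa2 and Foxa3 stood below all others, and their RPKM includes the 1 read that the authors added to each count.

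**Figure D3:**
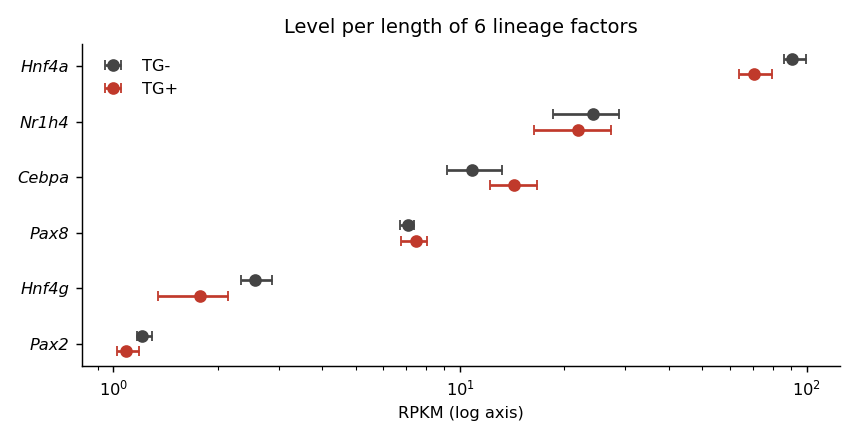
RPKM (log axis) of the 6 tested factors, with the mean and the range over the 3 TG- (grey) and 3 TG+ (red) mice. The order from Hnf4a to Pax2 is the same in both genotypes, and the gap between Nr1h4 and Cebpa closes in TG+.

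For each tested factor the genes with the nearest pattern over the 6 mice were sought among genes of at least 5 CPM, by the root mean square difference of log2 CPM deviations. Hnf4a was nearest to Mkrn1 (difference 0.04) and Mtmr4 (0.04), and Hnf4g to Cbx2 (0.05) and Gm15655 (0.08). Nr1h4 had the least close neighbours, Ksr2 (0.11) and Prr5 (0.12), and Cebpa was nearest to Myh11 (0.06), which encodes smooth muscle myosin, and Ptprd (0.06). Pax2 was nearest to Sirt6 (0.01) and Pias3 (0.02), and Pax8 to Pmvk (0.03) and Clasrp (0.03). With 6 mice and so many genes, near patterns are a description only.

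Other factors of liver and gut were partly low and partly lower or higher. Of 21, 14 were tested, 3 were higher and 2 lower at an adjusted p below 0.05, and the median log2 fold change was -0.15. DESeq2 called 3 higher and 5 lower. Rxra, the partner of FXR and of many other nuclear receptors, fell from 261, 271 and 245 CPM to 192, 192 and 190.2 CPM (log2 fold change -0.44, standard error 0.06, adjusted p = 0.00139). The TG+ mice were nearly equal and all lay below the TG- mice. Ppara, a regulator of fatty acid oxidation, fell by 0.55 on the log2 scale (adjusted p = 0.0405). Cebpd rose by 1.12 (adjusted p = 0.0234) and Cebpg by 0.30 (adjusted p = 0.0306). Gata6, a zinc finger factor of endoderm and mesoderm, was the one strict call, at 1.01, 0.823 and 0.778 CPM in TG- and 2.41, 1.66 and 2.31 CPM in TG+ (log2 fold change 1.28, adjusted p = 0.00376). Foxa1, Gata4, Cdx1 and Cdx2 had at most 3 reads in every library.

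Of 19 other factors of the nephron lineage, 18 were tested, 1 was higher and 1 lower at an adjusted p below 0.05, and the median log2 fold change was 0.03. Tfcp2l1, a factor of collecting duct and distal tubule and the most abundant of the list, rose from 560, 505 and 526 CPM to 740, 749 and 636 CPM (log2 fold change 0.42, standard error 0.08, adjusted p = 0.00712). Emx2, a homeobox factor of the urogenital ridge, fell by 0.33 (adjusted p = 0.0279). No factor of the list passed the strict rule in edgeR, and 4 of the 18 had an unadjusted p below 0.05, with 3 called by DESeq2 at an adjusted p below 0.05. Of 10 nephron development genes that encode other proteins, 9 were tested, 4 were higher and 1 lower, with a median log2 fold change of 0.26. Cited1, a coactivator of nephron progenitors, passed the strict rule, at 0.0390, 0.0350 and 0.0819 CPM in TG- and 1.05, 0.970 and 1.25 CPM in TG+, with at most 2 reads in any TG- library. Cdh16, a kidney cadherin and the most abundant, fell by 0.31 (adjusted p = 0.0125).

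Genes of liver and gut function changed in both directions, over a wider range of log2 fold changes than the factors. Of 20 genes of liver secreted proteins, 18 were tested, 7 were higher and 1 lower, 6 and 1 of them by the strict rule, with a median log2 fold change of 0.46. The largest was F2, prothrombin, at 0.975, 0.333 and 0.409 CPM in TG- and 164, 120.1 and 142 CPM in TG+ (log2 fold change 7.96, adjusted p = 4.36e-06). Apoc3 (7.14), Rbp4 (7.12), Apoa1 (3.64), Afp (2.83) and Ttr (1.42) also passed by log2 fold change and adjusted p, and Apoh fell by 1.41. Apob, the most abundant in TG-, was at 0.23 (adjusted p = 0.0959), and Alb, albumin, was at 0.47 (adjusted p = 0.160).

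Of 14 liver enzyme genes, 9 were tested, 1 was higher and 4 lower, with a median log2 fold change of -0.33. Pklr, the liver form of pyruvate kinase, rose from 40.6, 46.7 and 40.3 CPM to 177, 198 and 147 CPM (log2 fold change 2.03, adjusted p = 3.33e-05). Hpd, an enzyme of tyrosine breakdown, fell from 30.4, 34.5 and 44.7 CPM to 4.04, 5.34 and 4.72 CPM (-2.95, adjusted p = 3.07e-05). Tat and Otc had at most 3 reads in every library.

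Of 13 intestinal epithelium genes, 8 were tested, 3 were higher and 1 lower, with a median log2 fold change of -0.05. Apoa4 rose by 7.56 on the log2 scale, from at most 12.5 CPM in TG- to at least 1031 CPM in TG+, and Fabp1, a fatty acid binding protein, rose by 1.39 from under 1 CPM. Cdhr5, a brush border cadherin, was at -0.11 (adjusted p = 0.192). Fabp2, Sis and Alpi had 0 reads in all libraries. Several of these genes were singled out earlier in the same samples, so their direction is no independent evidence about the factors, and which factor acts on which gene was not tested.

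**Figure D4:**
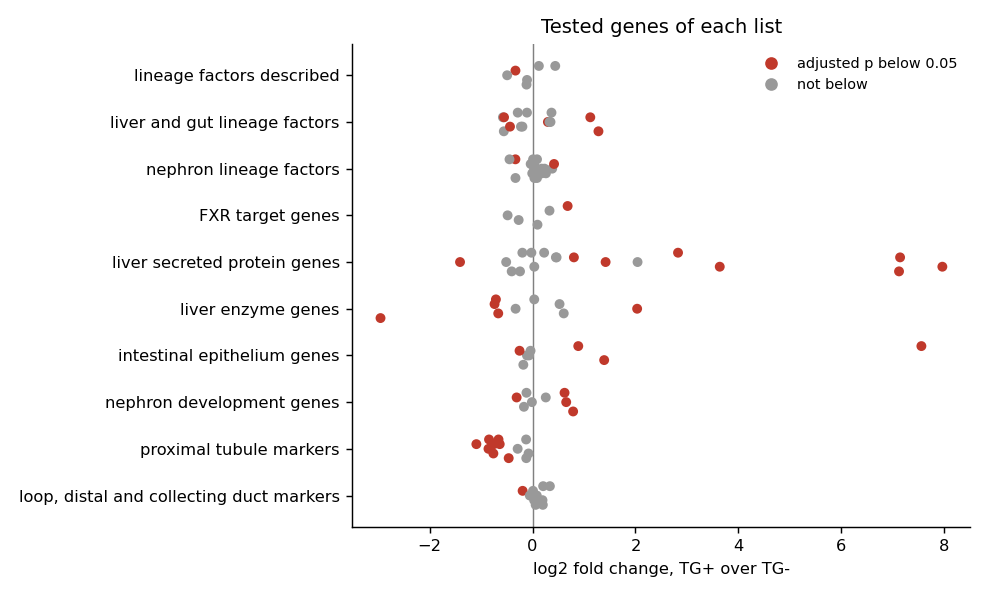
Log2 fold change (TG+ over TG-) of the tested genes in 10 lists, 1 point per gene, red where the adjusted p was below 0.05, with Cited1 left out because its TG- libraries held at most 2 reads. The lineage factors lie between -0.49 and 0.44, while liver secreted protein and intestinal genes reach 7.96 and 7.56.

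Markers of other cells moved as follows at an adjusted p below 0.05. Higher were 6 of 6 endothelial, 4 of 6 stroma, 2 of 4 podocyte, 5 of 7 tubule injury and 4 of 5 proliferation markers, and 0 of these were lower. Of 5 adrenal markers 2 were tested and 0 called by edgeR or DESeq2 (1 lower at an unadjusted p below 0.05), and of 5 pancreas markers 1 was tested and not called. Of 6 epididymis markers 3 were tested and all 3 were higher, with a sum of 1.25 to 1.91 CPM in TG- and 27.4 to 66.2 CPM in TG+, while Lcn5 and Lcn8 had 0 reads in all libraries. The part of these cells in the values of the lineage factors was not tested.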

How the data were processed

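Cortex RNA was extracted on columns, and libraries were made with a TruSeq RNA kit and sequenced as 51-base reads. The authors deposited counts per Ensembl gene for 12 libraries, without normalization, and RPKM values, which the authors computed per library from the count plus 1, with a scaling the header names BUQ. The submitters' processing notes name mm9. For the analysis the study's methods name the Tuxedo tools. Which program made these counts, with which annotation and use of strand, is not given in the sources used here. Columns of the authors' own fold changes and p-values were not used.

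The counts of the 2 kidneys were summed per mouse (48052131 to 60506785 reads). Genes were kept by filterByExpr, scaled by TMM (factors 0.944 to 1.07) and tested with edgeR 4.0.16 (limma 3.58.1, R 4.3.3) by the quasi-likelihood test of TG+ against TG-, with Benjamini-Hochberg adjustment over 19399 genes. The standard error is the absolute log2 fold change divided by the root of the F statistic. CPM are counts relative to the scaled library size. Where no library held more than 3 reads, the gene was treated as at the floor. The floor covers counting error only. The alternatives were DESeq2 1.42.0, no filter, each kidney as a library, a block for pairs, 3 other scalings and leaving out each mouse. Single values were tested by exact permutation (scipy 1.17.1). Symbols came from GENCODE M21 for 86.6% of the 37681 genes, and promoter windows from RefSeq on GRCm38.p6, whose coordinates were not mixed with those of the counts. The fit was tested on simulated counts.

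The named genes are the 8 factors, Hif1a, the 2 nearest genes of each factor, and from each list the genes past the strict rule (at most 6) and the most abundant, of which some are not reported here. Others named (calls at an adjusted p below 0.05, genes at 0 and Alb) were chosen after their values were seen, as was the set of motifs. The members and lists were chosen with earlier results of these data known. The deposited table is named for 3 pairs of mice (43-49 with 43-50, 43-29 with 43-26, and 43-75 with 43-76), each with 1 TG+ and 1 TG- mouse, and what a pair shares is not stated.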

Additional observations from a re-analysis of the deposited data

How the results depend on the processing

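Scaling by library size alone shifted the median log2 fold change of all genes from 0.01 to 0.13, and changes there are relative to that shift. Under it Nr1h4 (0.015) and Pax2 (0.0038) turned sign, 1 of the factors was called higher and 0 lower at an adjusted p below 0.05, and 4511 genes were higher and 947 lower (22 lower by the strict rule), where the reported split was 2982 to 2105. With each kidney as its own library 1 factor was higher and 2 lower, and 4476 genes were higher and 3812 lower. DESeq2 called 1 factor higher and 2 lower, and without a filter on low counts 2 were lower.

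Leaving out each mouse gave 0 to 1 factors higher and 0 to 1 lower, 1985 to 2757 genes higher, 1199 to 2023 lower (1262 without 43-50) and 469 to 633 higher by the strict rule, with the fewest without 43-76. It moved Nr1h4 between -0.31 and 0.057, above 0 without 43-50 (0.032) or without 43-75 (0.057). Over all 13 alternatives, Hnf4a lay between -0.44 and -0.21 and lost its call in 6. Hnf4g lay between -0.66 and -0.33 and was called in 4, and Cebpa lay between 0.31 and 0.61 and was called in 5. Pax8 stayed uncalled in all 13, between 0.05 and 0.24.

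The pairing is the one that the deposited table is named for, and what a pair shares is not stated. Deviations from the group means correlated by 0.307, 0.283 and -0.06 within the 3 pairs. Among TG- mice, 43-29 and 43-49 correlated best with their own partners, and 43-75 with 43-50 (0.0983). The reported values do not use the pairs, which enter as an alternative only. With the pair as replicate block 1 factor was higher (Cebpa, adjusted p = 0.00692) and 1 lower (Hnf4a), and 3413 genes were higher and 2499 lower.

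The cause of these changes was not tested. Without each mouse the log2 difference of the ratio of Hnf4g to Hnf4a lay between -0.35 (without 43-75) and -0.05 (without 43-50 or without 43-49), and it was -0.28 in kidney 1 and -0.06 in kidney 2 alone. That of Pax2 to Pax8 lay between -0.29 and -0.15, and was -0.27 and -0.22. The ratio of Foxa3 to Foxa2 has no value because both genes had at most 3 reads in every library. With 3 mice a group an exact test of 1 gene cannot go below 0.1, and Hnf4a and Hnf4g had already reached it.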
